A study of Mus musculus with 6 samples.

Results

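The phospholipid phosphatase-related family, Plppr1 to Plppr5, was followed in neural stem cells cultured from both ventricular regions of the embryonic mouse brain. The members were taken by symbol from probe sets with exactly 1 gene symbol, which gave 5 of the 19938 genes measured, each with a single such probe set. The family was chosen by the difference of Plppr5 between these same arrays, so what follows on the members in that comparison is a description with no test. One further probe set lists Plppr1 together with another gene and was not used.

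The study measured total RNA on 6 Affymetrix arrays, 3 for stem cells from the lateral ventricle's subventricular zone and 3 for those from the zone of the third ventricle. Both groups came from wild-type C57BL/6 embryos at embryonic day 17.5, labelled female, and shared the same culture: low-attachment dishes and a DMEM/Neurobasal medium that held FGF (20 ng/ml), EGF (20 ng/ml) and the supplements N2 and B27. The cells were therefore cultured and not sampled directly from the tissue, and RNA was amplified before hybridization. The labels call the arrays biological replicates without tying them to single animals, and a p-value here reflects only how far these cultures spread.

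Members of this family are membrane proteins that cross the membrane several times and belong to the same superfamily as the lipid phosphate phosphatases, the enzymes that dephosphorylate lysophosphatidic acid and related lipids outside the cell. They lack residues that the enzymes need for catalysis, and they are known mostly from the nervous system, where several of them drive filopodia and other membrane protrusions when expressed in cells. They are also called plasticity-related genes: Plppr4 is PRG-1, Plppr3 is PRG-2, Plppr1 is PRG-3, Plppr2 is PRG-4 and Plppr5 is PRG-5.

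One array, number 2 of the lateral ventricle, differed from the rest of its group. Over all genes it correlated at 0.991 to 0.992 with the third ventricle arrays, and at 0.980 and 0.982 with lateral ventricle arrays 1 and 3, without a p-value because genes are not independent replicates. A list of 16 cell division genes showed the same split: relative to each gene's mean over the 6 arrays, its median was -1.39 and -0.87 in lateral arrays 1 and 3, 0.57 in lateral array 2 and 0.53 to 0.60 in those of the third ventricle. Member values are therefore given for each array, on the deposited log2 scale, and beside a background gauge. The gauge is the 95th percentile of 1027 olfactory receptor genes, which lay between 5.03 and 5.16 in the 6 arrays.

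Of the 5 members, Plppr5 and Plppr1 stood lower in the third ventricle cultures, Plppr2 and Plppr3 lay at like levels in both, and Plppr4 lay below the background gauge in every array. In the fit over all genes with limma, 1 of the 5 passed at an adjusted p below 0.05 and as lower, Plppr5, the gene for which the family was chosen. In that fit 0.231% of all genes were called, 0.0853% as lower and 0.145% as higher in the third ventricle cultures, and 12.6% of all genes had an unadjusted p below 0.05, against which the unadjusted counts given for gene lists are to be read. The groups did not overlap in 2 of the 5 members, both lower in the third ventricle cultures, against 17.0% of all genes in either direction and 9.24% as lower. The median difference was -0.02 over all genes and -0.0011 over the members. The latter is the value of Plppr4, below the gauge, and so is not read further.

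Plppr5, which promotes filopodia in neural cells, had log2 values of 7.09, 7.02 and 7.08 in lateral arrays 1, 2 and 3. In the third ventricle arrays it lay at 5.32, 5.55 and 5.36. The 3 lateral arrays lay within 0.07 of each other, the third ventricle arrays within 0.23, and a gap of 1.47 separated the groups. Lateral cultures averaged 7.06 ± 0.04 and those of the third ventricle 5.41 ± 0.12 (SD, n = 3 each), a difference of -1.65 on the log2 scale (SE 0.10, 95% interval -1.88 to -1.43). The lateral level was thus 3.14-fold that of the third ventricle (95% interval 2.69 to 3.67), and 0.06% of all genes had a lower difference. Because the arrays hold bulk RNA, fewer cells that express a gene and less RNA per cell cannot be told apart.

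Lateral array 2, which resembled the third ventricle arrays over all genes, did not do so for Plppr5. There Plppr5 lay 1.86 above the background gauge, close to the 2.05 and 1.94 of lateral arrays 1 and 3. In the third ventricle arrays it was 0.26, 0.44 and 0.24 above the gauge, so the transcript remained just above background in all 3, where values are compressed and the fold may be understated. Leaving out any 1 of the 6 arrays gave differences between -1.72 and -1.61.

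Plppr1, which also promotes filopodia and neurite growth, had log2 values of 7.04, 6.18 and 6.26 in lateral arrays 1, 2 and 3. In the third ventricle arrays it lay at 5.52, 4.98 and 5.10. Every lateral array was above every array of the third ventricle, with a gap of 0.66, but the spread within groups was wider than for Plppr5. The means were 6.49 ± 0.47 and 5.20 ± 0.28 (SD, n = 3 each), a difference of -1.29 (SE 0.24, 95% interval -1.85 to -0.74), or a 2.45-fold higher lateral level (95% interval 1.67 to 3.59). It was not called in the fit over all arrays, whereas it was with array weights and with the replicate number as a block.

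Lateral array 1 held the highest Plppr1 value, and array 1 of the third ventricle the highest of its group. Without lateral array 1 the difference was -1.02, and without array 1 of the third ventricle it was -1.45. All lateral values exceeded the background gauge by 1.02 or more, whereas in the third ventricle cultures array 1 lay 0.45 above it and arrays 2 and 3 lay 0.13 and 0.02 below. Near background the log2 values of RMA are compressed, so the size of this difference may be understated. In the fit without lateral array 2, which called 8.25% of all genes, Plppr1 and Plppr5 were both called as lower. Nothing is read from any of these calls, since the comparison is the one behind the choice of the family.

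**Figure D1:**
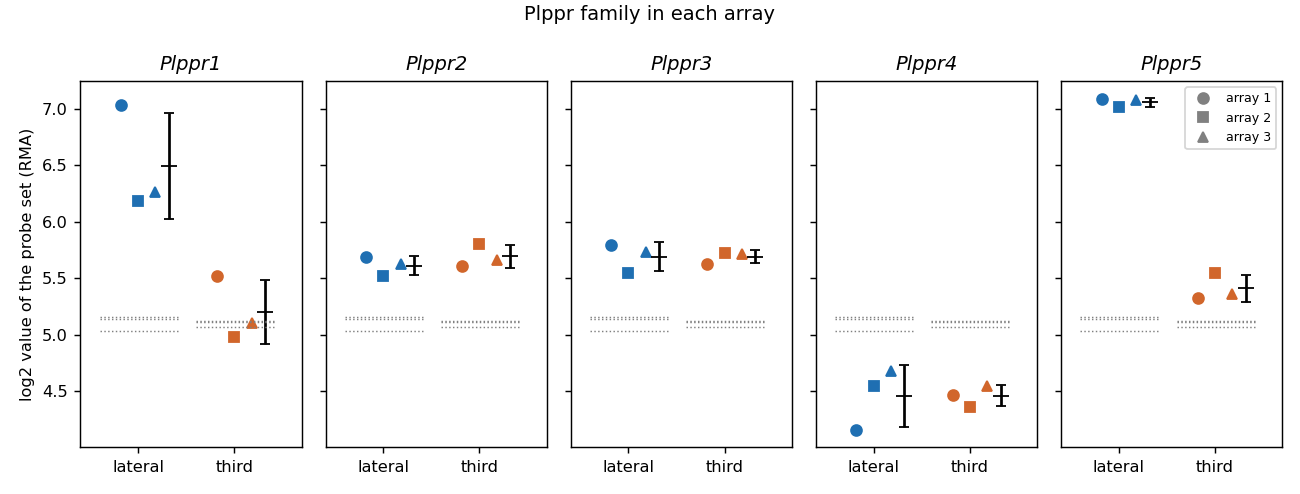
Log2 value of each Plppr member (vertical axis) in the lateral arrays (blue, n = 3) and those of the third ventricle (orange, n = 3), with the array number as the symbol, black bars for mean ± SD and dotted lines for the background gauge of each array. Plppr5 and Plppr1 have groups that do not overlap, Plppr2 and Plppr3 overlap just above the gauge, and Plppr4 lies below it in all 6 arrays. Levels of different genes come from different probes and are not comparable.

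In the other members the groups overlapped. Plppr2, also known as PRG-4, lay at 5.69, 5.52 and 5.62 in lateral arrays 1, 2 and 3, and at 5.61, 5.81 and 5.67 in the third ventricle arrays. The means were 5.61 ± 0.09 and 5.69 ± 0.10 (SD, n = 3 each), with a difference of 0.08 (95% interval -0.14 to 0.31). On the linear scale this interval runs from 0.905-fold to 1.24-fold.

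Plppr3, a regulator of axon branching, lay at 5.79, 5.55 and 5.74 in the lateral arrays. In the third ventricle arrays it lay at 5.63, 5.73 and 5.72, inside the lateral range. The difference was 0.00010 (SE 0.10, 95% interval -0.23 to 0.23), which leaves room for a change of up to 1.17-fold in either direction. Both Plppr2 and Plppr3 were 0.36 to 0.76 above the background gauge in the 6 arrays, where real differences are compressed.

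Plppr4, a protein of glutamatergic synapses that tunes lysophosphatidic acid signalling, lay at 4.15, 4.55 and 4.68 in the lateral arrays. In the third ventricle arrays it lay at 4.47, 4.36 and 4.55. All 6 values were below the gauge, by 0.46 to 0.88, so the gauge does not tell Plppr4 from background. Its difference of -0.0011 is therefore not read as a statement about its regional level.

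The start regions of Plppr5, Plppr1 and Plppr4 are shown because the first and second stood lower together, while Plppr4 is the immediate neighbour of Plppr5 on chromosome 3. Each line gives the 250 bases before the RefSeq start of the gene in build GRCm38.p6, read 5′ to 3′ on the strand of the gene: chr3:117574977-117575226, plus strand, for Plppr5, chr4:49059212-49059461, plus strand, for Plppr1 and chr3:117360877-117361126, minus strand, for Plppr4. Capitals mark matches on either strand to the octamer ATGCAAAT, the GC box GGGCGG, the CCAAT box, the TATA box TATAAA or the E-box CAGCTG, a set chosen after the sequences were seen.
Plppr5: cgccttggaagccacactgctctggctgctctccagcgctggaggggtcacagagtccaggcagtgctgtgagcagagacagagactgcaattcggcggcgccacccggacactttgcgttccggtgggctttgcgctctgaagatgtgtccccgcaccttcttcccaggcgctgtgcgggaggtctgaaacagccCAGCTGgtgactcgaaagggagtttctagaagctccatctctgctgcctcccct
Plppr1: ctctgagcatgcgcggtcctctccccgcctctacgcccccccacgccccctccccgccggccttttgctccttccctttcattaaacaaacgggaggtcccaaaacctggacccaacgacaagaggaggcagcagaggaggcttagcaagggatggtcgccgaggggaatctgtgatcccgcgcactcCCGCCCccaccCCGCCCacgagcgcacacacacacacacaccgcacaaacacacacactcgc
Plppr4: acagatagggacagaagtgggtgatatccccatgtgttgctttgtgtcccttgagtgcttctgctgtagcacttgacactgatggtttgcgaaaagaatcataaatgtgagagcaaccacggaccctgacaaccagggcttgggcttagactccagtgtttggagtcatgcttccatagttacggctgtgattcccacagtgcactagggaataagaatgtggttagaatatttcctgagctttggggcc

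The start regions of Plppr5 and Plppr1 shared no searched motif. Plppr5 held 1 E-box, which 13.0% of the 32807 RefSeq windows of this length also hold, and no GC box. Plppr1 held 2 GC boxes, a motif in 32.7% of windows, beside a run of CA repeats. Plppr4 held none of the 5 motifs. In base composition Plppr5 (61.6% G or C, 13 CpG dinucleotides) and Plppr1 (64.4%, 19 CpG) lay above the window medians of 52.4% and 6, and Plppr4 (48.0%, 3 CpG) below them. Plppr3 matched Plppr1 in G and C content at 64.4% with 14 CpG and none of the motifs. The annotation of the probe sets names no genome build, and the windows are RefSeq starts that need not be those used in these cells.

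The genes whose pattern over the 6 arrays was closest to Plppr5 were found by the root mean square difference between profiles centred on each gene's mean. Closest was Pcdh15, a protocadherin, at 0.20 on the log2 scale, followed by Pdgfra, the PDGF receptor of oligodendrocyte progenitors, at 0.22, and Lhfpl3, a membrane protein also marking those progenitors, at 0.25. Cntn1, a GPI-anchored adhesion molecule of the immunoglobulin superfamily, followed at 0.27, Rlbp1, a retinaldehyde-binding protein, at 0.28 and Tmeff1, a transmembrane protein, at 0.28. Dnm3, a dynamin, and Myt1, a zinc finger factor of the oligodendrocyte lineage, closed the 8 at 0.31 and 0.33. The median over all genes was 0.83. Likeness was taken on the same arrays that led to the choice of Plppr5, so it describes a shared pattern and nothing more.

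Plppr5 kept its flat lateral level where most of these genes did not. Pdgfra lay at 8.78, 8.25 and 8.53 in lateral arrays 1, 2 and 3, and Dnm3 at 7.92, 6.83 and 7.30, so that both were lowest in array 2. Cntn1 lay at 8.42, 8.40 and 8.29, the flattest of the 8 beside Plppr5.

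Around Plppr1 the nearest profiles were others. Alcam, an adhesion molecule of the immunoglobulin superfamily, was closest at 0.13, followed by Robo2, a receptor for Slit guidance cues, at 0.14 and Gpr17, a receptor of committed oligodendrocyte precursors, at 0.15. Cdo1, the cysteine dioxygenase, lay at 0.16, Crebrf at 0.17, Dmrta1, a transcription factor of telencephalic progenitors, at 0.18, Tmeff1 at 0.19 and Omg, the oligodendrocyte-myelin glycoprotein, at 0.20. The median over all genes was 0.73. In the 8 genes, as in Plppr1, lateral array 1 was the highest of the 6: Gpr17 lay at 7.98 there against 6.93 and 6.94 in lateral arrays 2 and 3. Tmeff1 was the 1 gene named for both members, and the profiles of Plppr1 and Plppr5 differed from each other by 0.39.

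**Figure D2:**
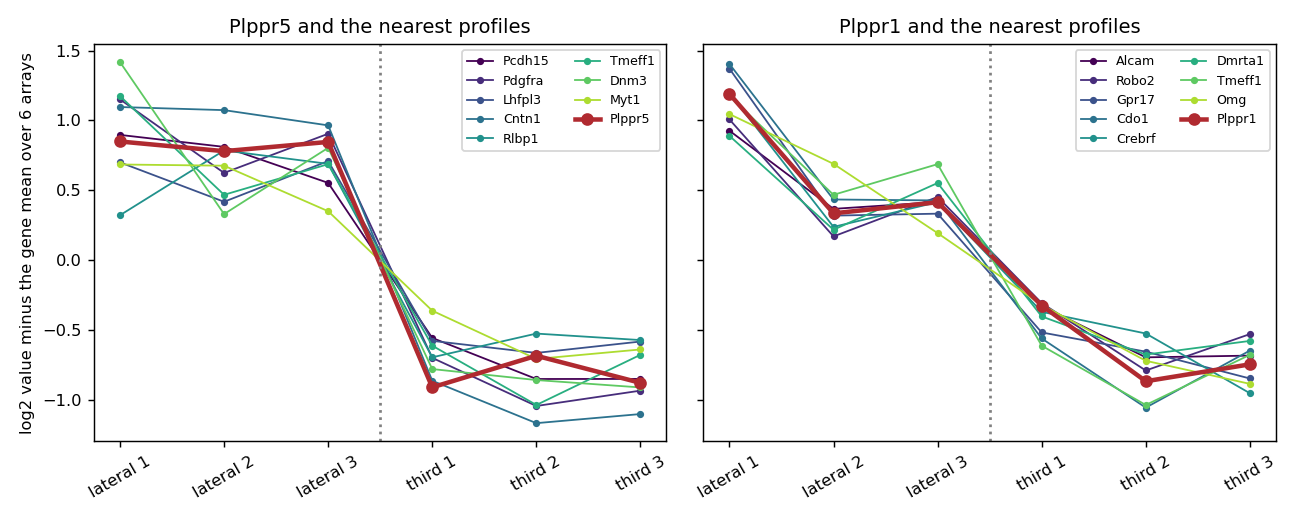
Log2 values minus each gene's mean over the 6 arrays (vertical axis) in each array (horizontal axis), for Plppr5 (left, red) and Plppr1 (right, red) with the 8 genes nearest to each in other colours. Plppr5 is flat over the lateral arrays, while Plppr1 and its 8 nearest genes peak in lateral array 1.

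Some markers of the oligodendrocyte lineage were called as lower in the third ventricle cultures, as Plppr5 was. Of 13 measured markers 2 were called in limma, both lower, against 0.0853% of all genes: Pdgfra (difference -1.79, adjusted p = 0.00707) and Lhfpl3 (-1.22, adjusted p = 0.00746). The marker lists were chosen with earlier results of these data known, so such counts are a description with no test. In all, 10 had a negative difference, 4 had an unadjusted p below 0.05, and 4 were called without lateral array 2, against 8.25% of all genes. The median over the list was -0.23, and the mean level of the list was 6.77 to 7.07 over the lateral arrays and 6.33 to 6.40 over those of the third ventricle. Olig1, a transcription factor of the lineage and the list's member with the highest mean, differed by 0.17 (95% interval -0.24 to 0.59), and Olig2 and Nkx2-2 by 0.09 and 0.13. Sox10 differed by -0.74 (95% interval -1.07 to -0.42), Gpr17 by -1.35 and Bcas1 by -0.74, all without passing. The groups did not overlap in 5 of the 13 markers, all lower and these among them, against 9.24% of all genes as lower. The myelin gene Mag was below the gauge in all 6 arrays. The part of these cells in the differences of Plppr5 and Plppr1 was not tested.

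Neuronal markers showed 1 call among 16, against 0.231% of all genes. It was Stmn4, a stathmin of neurons, at -0.84 (limma, adjusted p = 0.0293). The list's mean level was 6.25 to 6.26 over the lateral arrays and 6.03 to 6.09 over those of the third ventricle, and its median difference -0.09. Of the 16, 11 had a negative difference, 7 had an unadjusted p below 0.05, 6 of them lower, and 3 were called without lateral array 2, against 8.25% of all genes. The groups did not overlap in 7 of the 16, in both directions, against 17.0% of all genes. Dcx, a microtubule protein of neuroblasts whose groups did not overlap, differed by -1.63 (95% interval -2.38 to -0.88) and Tubb3 by -0.60, both in the direction of Plppr5 without passing. Map2 and Gap43, which had the highest means, differed by 0.24 and 0.60. Stmn2, Syt1, Slc17a6 and Gad2 were below the gauge in all 6 arrays. The part of neuronal cells in the members' values was not tested.

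Stem cell markers were present in all arrays, and none was called in limma. The 2 at an unadjusted p below 0.05 were higher in the third ventricle cultures. Of 14, 13 lay above the gauge in every array, 5 had a positive and 9 a negative difference, and the median was -0.08. Fabp7 (0.05) and Vim (0.19) had the highest means. Astrocyte markers had no call among 10, 2 at an unadjusted p below 0.05, 1 of them higher and 1 lower, and a median of -0.08. Sparcl1, whose groups did not overlap, differed by 0.94 and Aldoc by 0.17. Of the 10, 6 had a negative difference, among them Apoe at -1.35 and Aqp4 at -0.59, both with overlapping groups, and Aldh1l1, whose groups did not overlap, at -0.43. Markers of microglia, endothelium, ependyma and fibroblasts had none among 17, 0 at an unadjusted p below 0.05, and 11 of them were below the gauge in all 6 arrays, with Rarres2 (0.17) and Col1a1 (0.05) the highest. In the cell division list none of 16 was called, 13 had an unadjusted p below 0.05, all 16 had a positive difference, and Pcna differed by 0.56 and Top2a by 1.17. Without lateral array 2 all 16 were called, against 8.25% of all genes. In lateral array 2, where that list was as high as in the third ventricle, Plppr5 lay at 7.02. The part of cell division in the members' values was not tested.

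**Figure D3:**
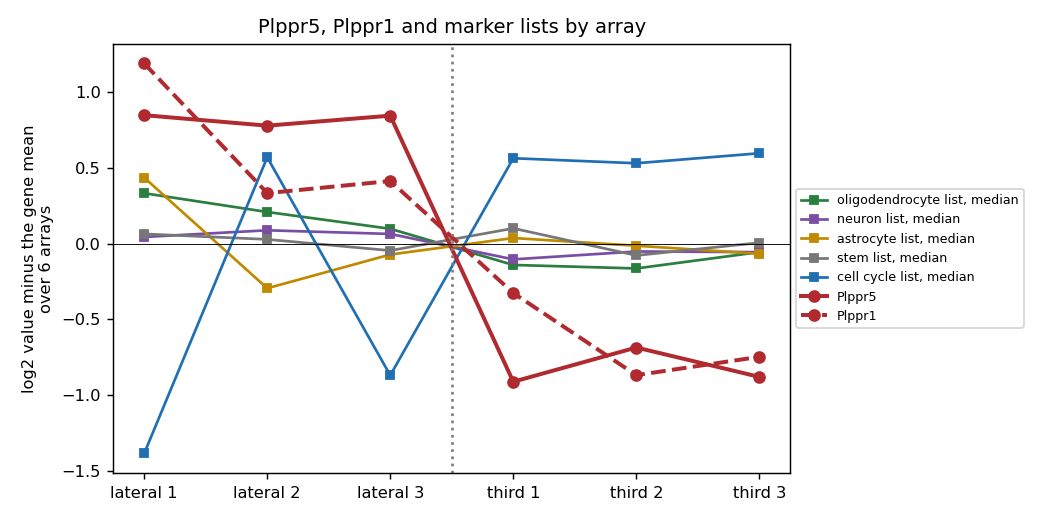
Log2 values minus each gene's mean over the 6 arrays (vertical axis) by array (horizontal axis), for Plppr5 (solid red), Plppr1 (dashed red) and the medians of 5 marker lists. The oligodendrocyte list runs from 0.33 in lateral array 1 to between -0.16 and -0.06 in the third ventricle arrays, and the cell cycle list separates lateral arrays 1 and 3 from the other 4.

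The chromosomal neighbours of the members were measured on the same arrays. The 3 nearest measured protein-coding genes on each side of each member in the RefSeq gene order of GRCm38.p6 gave 24 genes, of which 1 passed in limma, against 0.231% of all genes, and 4 had an unadjusted p below 0.05. The gene that passed was Tmeff1, 2 places from Plppr1 on chromosome 4. Tmeff1, a transmembrane protein with follistatin-like domains, lay at 8.57, 7.87 and 8.09 in lateral arrays 1, 2 and 3 and at 6.79, 6.36 and 6.72 in the third ventricle arrays. Its groups did not overlap, and it differed by -1.55 (SE 0.19, adjusted p = 0.0316). The call was lost without lateral array 3 (adjusted p = 0.0899) and without array 1, 2 or 3 of the third ventricle (0.132, 0.185 and 0.181), while the difference stayed between -1.71 and -1.35 over 13 alternatives of the fit.

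Cavin4, a caveolar protein of muscle that lies between Tmeff1 and Plppr1, stood lower as well without passing. It lay at 5.62, 5.51 and 5.76 in the lateral arrays and at 5.08, 4.79 and 4.55 in the third ventricle arrays. The groups did not overlap, and the difference was -0.82 (95% interval -1.15 to -0.49, limma adjusted p = 0.0895), with 1 of 3 arrays of the third ventricle above the gauge. The adjacent measured genes Tmeff1, Cavin4 and Plppr1 thus each had lower values in all arrays of the third ventricle than in any lateral array. The same held for 9.24% of all genes. Beyond them, Msantd3 differed by -0.01 (95% interval -0.24 to 0.22), and Acnat2 and Baat on the other side were below the gauge in all 6 arrays. Acnat1, which lies between Acnat2 and Baat, differed by -0.27 (95% interval -0.65 to 0.10) with overlapping groups. It was above the gauge in 2 of 3 lateral arrays and 0 of 3 arrays of the third ventricle.

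Around Plppr5 the neighbours had differences in both directions. Its nearest gene on one side is Plppr4, below the gauge in every array. Beyond it Palmd, a paralemmin-related protein, lay at 4.39, 5.02 and 5.07 in lateral arrays 1, 2 and 3. The third ventricle arrays held 5.83, 5.74 and 5.64. Palmd was thus higher in the third ventricle arrays, by 0.91 (95% interval 0.50 to 1.32, limma adjusted p = 0.125), without passing and with 0 of 3 lateral arrays above the gauge. Snx7, a sorting nexin on the other side of Plppr5, also had higher values there, by 0.39 (95% interval 0.17 to 0.61, adjusted p = 0.215). The remaining neighbours, Frrs1, Slc35a3, Dpyd and Ptbp2, differed by -0.21, 0.07, -0.20 and -0.09. The groups did not overlap for Frrs1, lower in the third ventricle arrays, nor for Palmd, Snx7 and Slc35a3, higher there. The same held for 17.0% of all genes in either direction. None of the 6 neighbours of Plppr5 passed in limma, 2 had an unadjusted p below 0.05, and the lowest adjusted p among them was 0.125. Around Plppr2 and Plppr3 none of 12 passed, and 0 had an unadjusted p below 0.05.

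**Figure D4:**
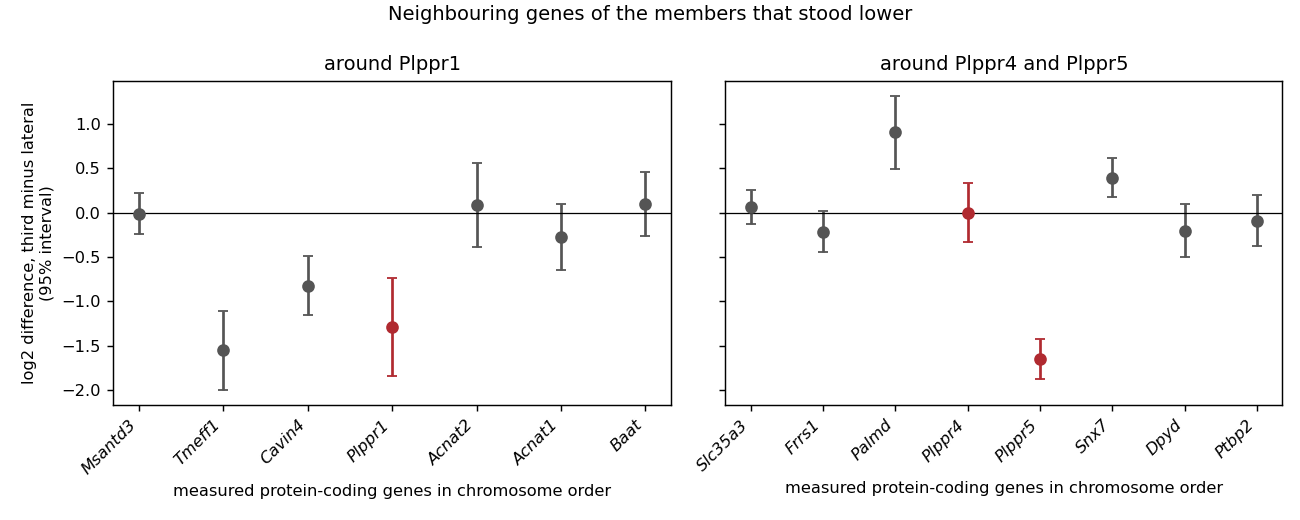
Log2 difference, the third minus the lateral ventricle, with 95% interval (vertical axis) for measured protein-coding genes in chromosome order (horizontal axis) around Plppr1 (left) and around Plppr4 and Plppr5 (right), members in red. Tmeff1 (-1.55) and Cavin4 (-0.82) next to Plppr1 lie below 0, whereas Palmd (0.91) and Snx7 (0.39) near Plppr5 lie above it.

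The comparison with related genes asked whether the lipid phosphate system around the family differed between the regions. None of 79 measured genes in 4 lists passed in limma, against 0.231% of all genes, while 7 had an unadjusted p below 0.05. The lowest adjusted p was 0.0790 and the median difference -0.01. Without lateral array 2 it was 5 of 79, against 8.25% of all genes.

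The relatives of the family, the lipid phosphate phosphatases and the wider superfamily, had 0 of 16 passing, 0 at an unadjusted p below 0.05, 4 positive and 12 negative differences, and a median of -0.06. Plpp3, the relative with the highest mean of this list, averaged 8.82 ± 0.32 in lateral cultures and 8.70 ± 0.19 in those of the third ventricle (SD, n = 3 each), a difference of -0.12 (95% interval -0.52 to 0.27). Plpp4 differed by -0.28 (-0.74 to 0.17), Plpp5 by -0.05 (-0.36 to 0.26) and Samd8, a ceramide phosphoethanolamine synthase, by -0.15 (-0.57 to 0.27). Plpp2, G6pc and G6pc2 were below the gauge in all 6 arrays.

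Receptors for lysophosphatidic acid and sphingosine 1-phosphate had 0 of 10 passing, 2 at an unadjusted p below 0.05 and a median of -0.04. Lpar4, a lysophosphatidic acid receptor, lay at 8.21, 8.53 and 8.27 in lateral arrays 1, 2 and 3, against 8.01, 7.50 and 7.83 in those of the third ventricle. Its groups did not overlap, and it differed by -0.56 (95% interval -0.91 to -0.21, limma adjusted p = 0.260). S1pr1, a sphingosine 1-phosphate receptor of neural progenitors and astrocytes, differed by -0.74 (-1.36 to -0.11, adjusted p = 0.349) with overlapping groups. Lpar6 differed by 0.51 (-0.17 to 1.18) and S1pr2 by -0.08 (-0.35 to 0.19), so the receptors did not share a direction. Lpar5 was not analysed here.

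Genes that make, move or break down these lipids had 0 of 23 passing, 2 at an unadjusted p below 0.05, 13 positive and 10 negative differences, and a median of 0.0020. Agpat5, Sgpl1, Agk and Pld1, those with the highest means, differed by 0.08, -0.33, 0.11 and 0.10. Lpin1, a phosphatidate phosphatase inside the cell that was singled out after its values were seen, had the lowest adjusted p. It lay at 6.71, 6.63 and 7.05 in the lateral arrays and at 7.53, 7.53 and 7.56 in the third ventricle arrays, a difference of 0.74 (SE 0.12, limma adjusted p = 0.0790). It was called with array weights (adjusted p = 0.0403) and without lateral array 2 (0.0141) or 3 (0.0496).

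Genes of the Nogo and filopodia machinery, among which the family's partners have been sought, had 0 of 30 passing and 3 at an unadjusted p below 0.05. Those 3 were higher in the third ventricle cultures. The list had 15 positive and 15 negative differences and a median of 0.0040. Calm2, a calmodulin gene, Gpm6a, a membrane glycoprotein that itself induces filopodia, Cdc42 and Rhoa had the highest means and differed by 0.15, -0.11, 0.21 and 0.05. For Gpm6a the 95% interval ran from -0.32 to 0.09, and for Rhoa from -0.15 to 0.26.

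**Figure D5:**
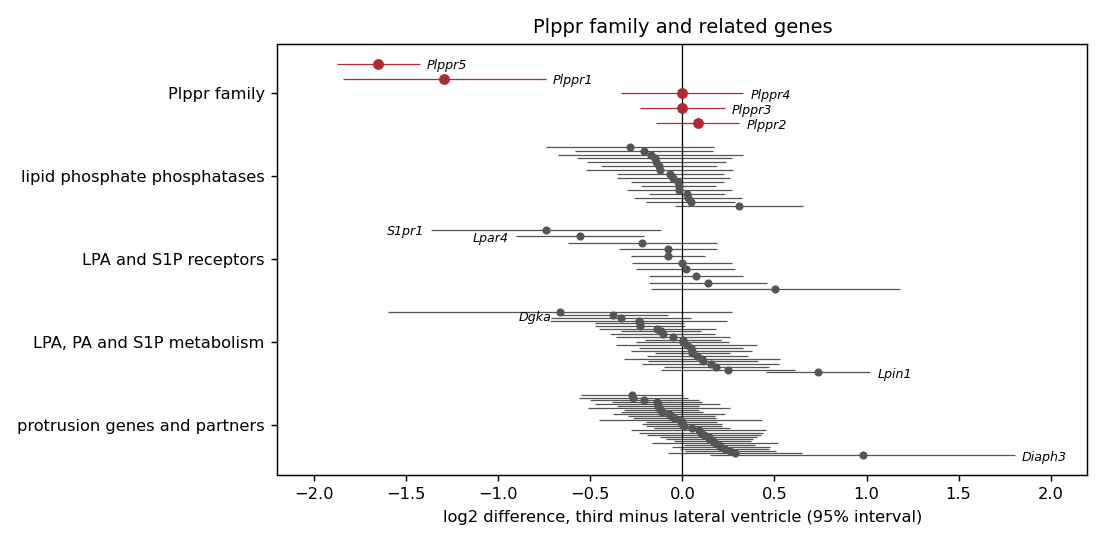
Log2 difference, the third minus the lateral ventricle, with 95% interval (horizontal axis) for each Plppr member (red) and for each measured gene of 4 related lists (grey), sorted within each list. The point estimates of Plppr5 (-1.65) and Plppr1 (-1.29) lie left of every gene of the related lists, none of which passed in limma. The family was chosen by this difference of Plppr5, and the interval of Plppr1 overlaps that of S1pr1 among others.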

How the data were processed

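The 6 arrays of cultured neural stem cells took their region from the sample titles. The deposited log2 values per probe set are RMA values from the authors; per the submitters' processing notes, the software was Affymetrix Expression Console 1.1. Per the labels' protocols, cDNA was amplified from 500 pg to 50 ng of RNA. The genome build is not given in the sources used here. Dim values are compressed and precision is limited by having 6 arrays.

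The platform annotation gave 1 symbol to 21789 of 35556 probe sets, several to 1621 and none to 12146. A gene took the probe set with the highest mean over 6 arrays, without a filter. The comparison, the third minus the lateral ventricle, used limma 3.58.1 in R 4.3.3 over 19938 genes with Benjamini-Hochberg adjustment at 0.05. On simulated data with 200 changed genes recovery was 30.2% for 1.5-fold, 82.8% for 2-fold and 95.9% for 4-fold changes, and 8 of 150 calls were false. The simulated noise was independent, and each gene had the same spread in all 6 arrays. The array weights fitted to the real data ran from 0.426 (lateral array 2) to 1.57 (array 3 of the third ventricle). Recovery in the real arrays may therefore be lower. The members, lists and rules were chosen with earlier results of these data known. Named were all members, genes of related lists and neighbours that passed, the 4 highest means per related list, passing markers and the 2 highest means per marker list, and the 8 nearest profiles. Neighbours that did not pass, Lpin1, Dcx, Tubb3, Apoe, Aqp4, Aldh1l1, Olig2, Nkx2-2, Sox10, Bcas1 and genes below the gauge were named after their values were seen. The gauge was chosen with its values known. Protein sequences were not used here. Start regions come from RefSeq, GRCm38.p6, and 5 of 5 members matched. Alternatives were the mean of probe sets, a filter on the lowest 40% of genes, quantile and cyclic loess normalization, the prior, array weights, a replicate block and each array left out.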

Additional observations from a re-analysis of the deposited data

How the results depend on the processing

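The differences of the members moved by less than the larger of the SDs of their groups in every alternative run, though for Plppr5, Plppr3 and Plppr4 by more than the smaller one in some of them. Over 13 alternatives Plppr5 ranged from -1.72 to -1.61, Plppr1 from -1.45 to -1.02, Plppr2 from 0.03 to 0.12 and Plppr3 from -0.07 to 0.05, and over 12 alternatives Plppr4, which the filter on dim genes removed, ranged from -0.15 to 0.11. Plppr3 and Plppr4 changed sign around 0. Plppr5 was called in 13 of 13 and Plppr1 in 3 of 13, with array weights, with the replicate block and without lateral array 2, which is a description only. The count of all genes called depended on single arrays: 46 with all arrays, 158 with array weights, 25, 1644 and 20 without lateral arrays 1, 2 and 3, and 7, 4 and 4 without arrays 1, 2 and 3 of the third ventricle. Called related genes numbered 1 with array weights and 0 to 5 with an array left out, and neighbouring genes 3 with array weights and 0 to 3 with an array left out. The cause was not tested. The replicate numbers were not taken to pair the arrays: same-numbered arrays deviated together at 0.24, 0.11 and 0.07, each array correlating best with its own number, but not all reached 0.1. The replicate block gave 57 calls over all genes, 0 related and 1 neighbouring gene, and differences of -1.65 for Plppr5 (SE 0.11) and -1.29 for Plppr1 (SE 0.11). Arrays near background limit what can be said of Plppr2, Plppr3 and Plppr4.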

Other observations

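The start region of Plppr2 held a repeated motif that the other members lacked. In the 250 bases before its RefSeq start (chr9:21936760-21937009, plus strand, GRCm38.p6) the octamer ATGCAAAT, the sequence bound by POU-domain factors, occurred 4 times. Capitals mark the octamer, and also the GC box GGGCGG, the CCAAT box and the TATA box, on either strand.
Plppr2: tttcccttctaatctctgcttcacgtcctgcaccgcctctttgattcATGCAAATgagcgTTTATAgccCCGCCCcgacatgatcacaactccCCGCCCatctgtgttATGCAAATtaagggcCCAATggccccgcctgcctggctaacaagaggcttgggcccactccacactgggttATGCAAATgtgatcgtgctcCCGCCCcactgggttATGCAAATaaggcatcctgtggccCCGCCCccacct

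The octamer occurred in 1.60% of the 32807 windows of this length, and 3 windows in all held 3 or more copies. The 4 GC boxes of this window are a commoner feature, since 8.47% of windows hold 3 or more. The motif was noticed in the sequence before it was counted. Plppr2 itself lay just above the background gauge in all 6 arrays and differed between the regions by 0.08 (95% interval -0.14 to 0.31), so these arrays do not bear on the motif.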
